A study of Saccharomyces cerevisiae with 3 samples.

Results

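The large ribosomal subunit of yeast is built in the nucleolus on a long precursor rRNA. Assembly factors fold, methylate and trim this RNA, hold the place of late ribosomal proteins, and leave the particle one after another as it moves through the nucleoplasm and is exported to the cytoplasm, where the last of them come off. The genes for these factors are known to be expressed together in yeast, at high levels in cells that grow on a rich medium and at low levels in starved cells, so their transcripts follow how much the cells invest in new ribosomes.

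The genes described here are 58 large subunit assembly factors out of 6218 genes on the array. They were chosen by symbol from the known protein components of the pathway, with earlier results of these data known, and all 58 symbols were matched to an open reading frame on the array. They were divided by function into 10 groups: 10 RNA helicases, 2 rRNA methyltransferases, 7 proteins of the Nop7 complex and spacer processing, 12 Brix proteins and partners, 3 Noc proteins, 4 GTPases, the Rix1 complex with Mdn1 (4 genes), placeholders and the joining block (3 genes), 5 factors of export and cytoplasmic maturation, and 8 other assembly factors.

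The cells were sum1 deleted diploids of the SK1 background (JPY214), so all 3 samples lack Sum1, a repressor of mid-sporulation genes. The study also measured wild-type cells at these times, on arrays that were not compared here. For committed wild-type cells it reports that many rRNA processing genes were not induced by rich medium. Genes of ribosomal proteins, in its account, were induced by YPD at all stages of transfer. Commitment of the sum1 deleted cells was not measured here. The sum1 deleted cells were pre-grown in YPA, a rich medium with acetate, and kept for 6 h in sporulation medium (SPM, dilute acetate with a little raffinose). Part of them was transferred to YPD, a rich medium with glucose, for 20 or 40 min. Each sample was labelled with Cy5 and hybridized once against 1 common Cy3 reference, RNA of wild-type SK1 cells (NKY1551) growing in YPA. A log2 ratio of 0 therefore marks the same level as in the reference relative to the median gene, and the reference differs from the samples in both genotype and medium. With 1 array per time point there is no replicate culture and no test, and the 6 h and YPD samples differ in medium, time and slide together, which cannot be told apart. In a bulk sample, fewer cells that carry a transcript and less of the transcript per cell cannot be told apart either. Errors are SDs of the 2 spots of a gene on the same slide and cover spotting and scanning only. A gene is counted as higher or lower where it differed at least 2-fold.

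Background-subtracted signals over all gene spots had medians of 4280, 2748 and 1616 for Cy5 and 3939, 3399 and 2811 for Cy3 on the 6 h, 20 min and 40 min arrays. The probe for SUM1 read 3.38-fold, 2.59-fold and 3.12-fold below the reference on the 3 arrays. All 10 markers of sporulating cells were at least 2-fold above the reference on every array, with log2 ratios of 1.72 to 6.18 at 6 h. Of 13 markers of haploid or mating cells, which diploids should express little, 6 were also at least 2-fold above the reference at 6 h, 5 at 20 min and 7 at 40 min. Their log2 ratios at 6 h ran from -0.73 (STE6, the a-factor transporter) to 4.14 (STE18, a G protein subunit), and their part in the results below was not tested.

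At 6 h in SPM the assembly factors were spread around the level of the reference. Their median log2 ratio was -0.30, with 8 members at least 2-fold higher and 15 at least 2-fold lower, where 21.5% of all genes were higher and 17.8% lower. These counts moved with the treatment of dim spots and of the dye balance: with the floor at the mean over the buffer spots only 3 members were lower, and with loess only 5 were higher. MDN1, which encodes the giant ATPase that pulls factors off the particle, read -1.94 ± 0.19, but a Cy5 spot of it was under the floor, its mean Cy5 signal of 700 was under the median of the buffer spots (749), and with the floor at the mean over the buffer spots it read -0.48. Among the other low members were the helicase gene MAK5 at -1.82 ± 0.01, the methyltransferase gene NOP2 at -1.72 ± 0.16, MAK16 at -1.64 ± 0.17 and NOC2 at -1.47 ± 0.29. With the floor at the mean over the buffer spots MAK5 and NOP2 stayed at least 2-fold lower, at -1.59 and -1.23, and MAK16 and NOC2, at -0.92 and -0.87, did not.

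The 2 members highest at 6 h act at the cytoplasmic end of the pathway. REI1, whose product takes the export factor Arx1 off the particle in the cytoplasm, had the highest log2 ratio, 2.47 ± 0.08. SQT1, which encodes the chaperone of ribosomal protein Rpl10, followed at 2.42 ± 0.09, and IPI3 of the Rix1 complex at 2.25 ± 0.24. The mean Cy3 signals of SQT1 (973) and IPI3 (939) were under the median of the buffer spots (1140). With the floor at the mean over the buffer spots SQT1 read 1.45 and IPI3 1.22, while REI1 read 2.69 and DBP3 1.41. RRP1 stood at 1.5 ± 0.04 and the helicase gene DBP3 at 1.19 ± 0.05. The other members at least 2-fold above the reference were the helicase genes DRS1 (1.11 ± 0.20) and DBP7 (1.06 ± 0.01) and CIC1 (1.06 ± 0.05), so 3 of the 10 helicases were in this set. Another 3 helicases, HAS1, MAK5 and DBP6, were among the 15 lower members.

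After 20 min in YPD nearly the whole set was far above both the 6 h sample and the reference. The median log2 ratio to the reference was 3.35, and 54 of the 58 members were at least 2-fold above it with 0 below, where 28.1% of all genes were higher and 25.4% lower. Relative to the 6 h sample the median change was also 3.35, a 10.2-fold difference, and 54 members were at least 2-fold higher and 0 lower, where 19.3% of all genes were higher and 26.1% lower. The median over all genes changed by -0.25. In 37 members the difference from 6 h was at least 8-fold, as in 5.98% of all genes, and both spots put the same 54 members past 2-fold. With the floor at the mean over the buffer spots 50 members were at least 2-fold higher than at 6 h and 26 at least 8-fold. That setting moved the change of the members by a median of -0.57 at 20 min and -0.67 at 40 min, and by more than 1.5 times in 18 and 53 of them, while the median change over all genes became -0.50 and -0.48. Members with no spot under that floor, such as DRS1, YTM1, RIX1 and REI1, also moved by -0.57 and -0.67, through the array medians alone. The folds given below for single members are therefore those of the lower floor, with the other value beside the largest ones.

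At 40 min the picture was close to that at 20 min. The median stood at 2.97 against the reference, with 54 members at least 2-fold higher (background 26.7% of genes) and 0 lower (26.7%). Against 6 h the median change was 3.11, or 8.64-fold, with 53 members higher (19.4% of genes) and 0 lower (30.2%), while the median over all genes changed by -0.32. The changes at 20 and at 40 min share the 6 h array, so an error in that array would enter both. Of the 15 members at least 2-fold below the reference at 6 h, 14 were at least 2-fold above it at 20 min, and only MDN1 was not. The share of all genes that crossed in this way was not counted. With the floor at the mean over the buffer spots only 3 members were at least 2-fold lower at 6 h. Among the 500 of 6218 genes with the most positive change on the array were 41 of the 58 members at 20 min and 41 at 40 min.

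**Figure D1:**
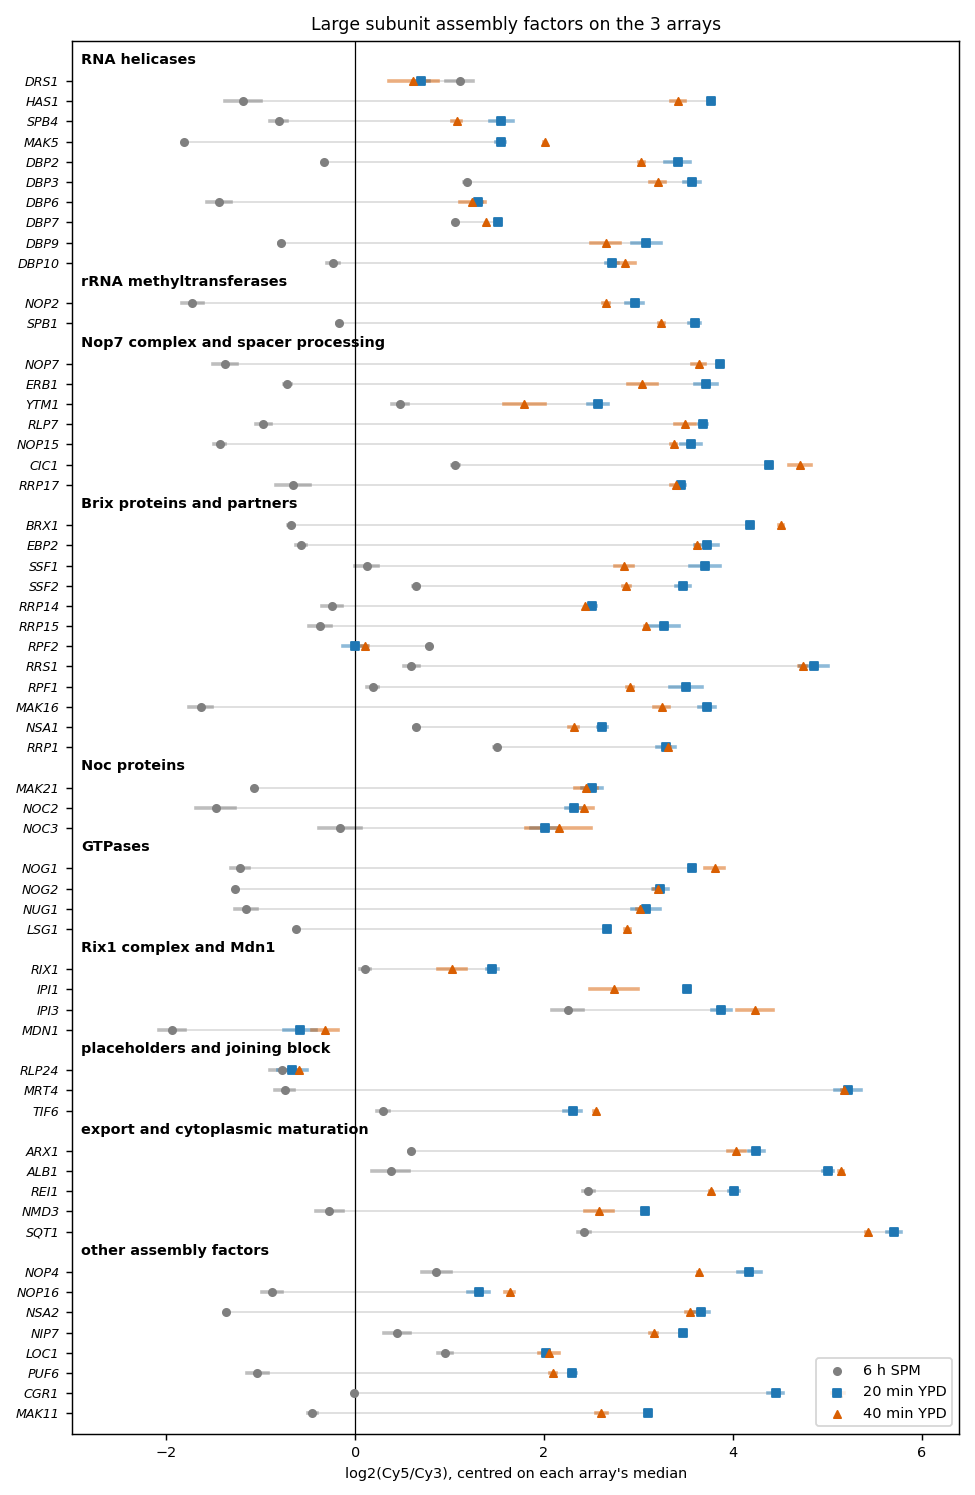
Log2 ratio of Cy5 over Cy3 (x axis, centred on the median of each array) of each of the 58 large subunit assembly factors (y axis, by group) at 6 h in SPM (grey circles), 20 min in YPD (blue squares) and 40 min in YPD (orange triangles). Points are means of 2 spots, thick lines join the 2 spots, and the 6 h value of IPI1 is not drawn because both channels were under the floor. In 54 members the 20 min point lies at least 1 log2 unit to the right of the 6 h point or, for IPI1, of 0, and the exceptions are DRS1, DBP7, RPF2 and RLP24.

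The RNA helicases are ATP-driven enzymes of the DEAD-box family that remodel the precursor RNA at successive steps. Their median change was 2.85 at 20 min and 2.89 at 40 min, and 8 of 10 were at least 2-fold higher than at 6 h at both times. HAS1, which acts in the assembly of both subunits, had the most positive change, with log2 ratios of -1.19 ± 0.27, 3.77 ± 0.00 and 3.42 ± 0.11 at 6 h, 20 min and 40 min, or 31.2-fold and 24.4-fold over 6 h. Under the floor at the buffer mean its changes were 3.63 and 3.18 and its 6 h ratio was -0.20. Its mean signals at 6 h, Cy5 883 and Cy3 2143, were both under that floor. DBP9 and DBP6, whose products work in the same early particle, went from -0.79 to 3.08 and 2.65 and from -1.44 to 1.30 and 1.24. MAK5 moved from -1.82 to 1.54 and 2.01, and it and DBP10 were the only helicase genes with a higher value at 40 than at 20 min. The genes that began above the reference behaved differently from one another: DBP3 went from 1.19 to 3.57 and 3.20, whereas DBP7 stayed at 1.06, 1.51 and 1.39.

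DRS1 did not follow the other helicases. Its log2 ratios were 1.11 ± 0.20, 0.70 ± 0.13 and 0.62 ± 0.36, a change of -0.41 ± 0.07 at 20 min and -0.49 ± 0.16 at 40 min. The spots were bright enough to be read in both channels, with mean Cy5 signals of 5214, 2674 and 1543 and Cy3 signals of 2559, 2121 and 1698. With the floor at the mean over the buffer spots the change at 40 min was -1.16, which is past 2-fold. No spot of DRS1 was under that floor, so only the array medians moved it. With differences centred on the median of all genes the change at 40 min was -0.17.

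Both rRNA methyltransferase genes were higher in YPD. NOP2, whose product methylates a cytosine of the large rRNA, went from -1.72 to 2.96 ± 0.13 and 2.66 ± 0.04, differences from 6 h of 25.7-fold and 20.9-fold, with changes of 3.84 and 3.45 under the floor at the buffer mean. SPB1, which encodes a methyltransferase of the ribose backbone, started near the reference at -0.18 ± 0.02 and reached 3.60 ± 0.08 and 3.24 ± 0.03. The 2 genes thus differed by more at 6 h than in YPD.

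The Nop7 complex and the proteins around it prepare the internal spacers of the precursor RNA for removal. All 7 genes were at least 2-fold higher at both times, with medians of 4.44 and 4.06, of the 10 groups the highest at 20 min and behind only the GTPases at 40 min. These ranks are those of the lower floor, and the one at 40 min did not hold with the floor at the buffer mean. NOP7 itself, the scaffold of the complex, went from -1.38 ± 0.18 to 3.87 ± 0.02 and 3.64 ± 0.09, or 37.9-fold and 32.4-fold. Its changes were 3.95 and 3.63 under the floor at the buffer mean and its 6 h ratio was -0.44, no longer 2-fold below the reference. Its partner ERB1 went from -0.72 to 3.72 and 3.04. The smallest change of the group belonged to the remaining subunit, YTM1, which Mdn1 pulls from the particle. YTM1 began at 0.47 ± 0.12 and reached 2.57 ± 0.15 and 1.79 ± 0.31, a change of 2.10 at 20 min and 1.32 at 40 min. The latter was 0.65 under the floor at the buffer mean, which is under 2-fold.

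The genes of the proteins that sit on the spacer next to the Nop7 complex were far above 6 h as well. NOP15, an RNA-binding protein of the spacer, went from -1.44 ± 0.09 to 3.56 ± 0.16 and 3.37 ± 0.04. RLP7, a relative of ribosomal protein Rpl7, went from -0.97 ± 0.11 to 3.69 ± 0.05 and 3.49 ± 0.15. CIC1 was the only one of the group above the reference by 2-fold at 6 h, at 1.06, and stood at 4.39 ± 0.01 and 4.71 ± 0.17 in YPD. RRP17, which encodes an exonuclease of the pathway, changed by 4.11 and 4.06.

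Brix proteins share a fold that binds RNA and work in pairs with the other genes of this group. Of the 12 genes, 11 were at least 2-fold higher than at 6 h at both times, with a median of 3.45 at 20 min and 2.73 at 40 min. MAK16 had the most positive mean change of the group, from -1.64 ± 0.17 to 3.73 ± 0.12 and 3.24 ± 0.11, or 41.2-fold and 29.5-fold. Under the floor at the buffer mean these changes were 4.30 and 3.72, while those of BRX1 were 4.29 and 4.52. The rank of MAK16 by mean change therefore holds for the lower floor only. BRX1 and its partner EBP2 started at -0.68 and -0.57 and reached 4.18 and 3.72 at 20 min and 4.51 and 3.62 at 40 min. SSF1 and SSF2 are near-identical copies whose PCR products can capture each other's cDNA, so their values are not independent. SSF1 read 0.12 ± 0.18, 3.70 ± 0.22 and 2.85 ± 0.14, and SSF2 read 0.65 ± 0.04, 3.47 ± 0.11 and 2.87 ± 0.05.

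The exception of the group was RPF2, which encodes the Brix protein that brings the small rRNA of the subunit into the particle together with Rrs1. RPF2 read 0.78 ± 0.03 at 6 h, -0.005 ± 0.18 at 20 min and 0.10 ± 0.05 at 40 min, a change of -0.79 ± 0.21 and -0.68 ± 0.02. RRS1, at 0.59 ± 0.11 not far from RPF2 at 6 h, reached 4.86 ± 0.21 and 4.74 ± 0.05. The partners were 0.19 log2 units apart in SPM and 4.87 and 4.63 apart in YPD, or 4.35 and 3.99 with the floor at the mean over the buffer spots. The mean Cy5 signal of RPF2 was 2761, 1006 and 717 on the 3 arrays, and its Cy3 signal was 1687, 1288 and 1131. In YPD both were under the mean over the buffer spots (Cy5 1304 and 1236, Cy3 1297 and 1537) and above their median. The distances of 4.35 and 3.99 therefore set RRS1 against a floored RPF2 and are no separate measure of RPF2. RPF2, RLP24 and MDN1 were the 3 members with a mean Cy5 signal under that mean in YPD, and they had the 3 lowest ratios there; the part of low signal in these ratios was not tested.

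The spans within the other complexes went both ways. Rpf1, Mak16, Nsa1 and Rrp1 bind the particle as 1 module, and their genes spanned 3.13 log2 units at 6 h, from MAK16 at -1.64 to RRP1 at 1.5. With the floor at the mean over the buffer spots this span was 2.19. At 20 min the same 4 genes lay within 1.11 units, between NSA1 at 2.62 and MAK16 at 3.73, and at 40 min within 1.00 units. The genes of Arx1, Alb1 and Rei1 spanned 2.09 units at 6 h and 1.00 and 1.38 in YPD. MAK21 (also called Noc1), NOC2 and NOC3, which escort the particle from its earliest steps to the nucleoplasm, read -1.08, -1.47 and -0.16 at 6 h, 2.51, 2.31 and 2.01 at 20 min, and 2.45, 2.43 and 2.15 at 40 min. Their span was 1.32, 0.50 and 0.29 units, but 0.74, 0.47 and 0.92 with the floor at the mean over the buffer spots. At 6 h MAK21 and NOC3 were under that floor in both channels and were not measured with it, so 0.74 is no span of the complex. A Cy5 spot of MAK21 was under the floor at 6 h, and the spots of NOC3 lay far apart, with an SD of 0.31 at 6 h and 0.49 at 40 min.

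In other complexes the span widened or changed little. BRX1 and EBP2 were 0.11 units apart at 6 h and 0.46 and 0.88 apart in YPD. SSF1, RRP14 and RRP15, whose products work together, spanned 0.49 units at 6 h, 1.20 at 20 min and 0.65 at 40 min. With the floor at the mean over the buffer spots these spans were 0.12, 1.20 and 1.24. At 6 h the mean signals of SSF1, Cy5 1589 and Cy3 1534, were both under that floor. In the Rix1 complex, RIX1 and IPI3 were 2.15 units apart at 6 h and 2.42 and 3.21 apart in YPD, with IPI1 between them in YPD and not measured at 6 h. With the floor at the buffer mean RIX1 read 0.33, 1.11 and 0.58 and IPI3 read 1.22, 3.06 and 2.42. They were then closer at 6 h and did not part further from 20 to 40 min. The Nop7, Erb1 and Ytm1 genes spanned 1.85, 1.29 and 1.84 units on the 3 arrays, or 1.15, 1.29 and 1.84 with the floor at the buffer mean. There the order turned over, with YTM1 the highest of the 3 in SPM and the lowest in YPD.

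**Figure D2:**
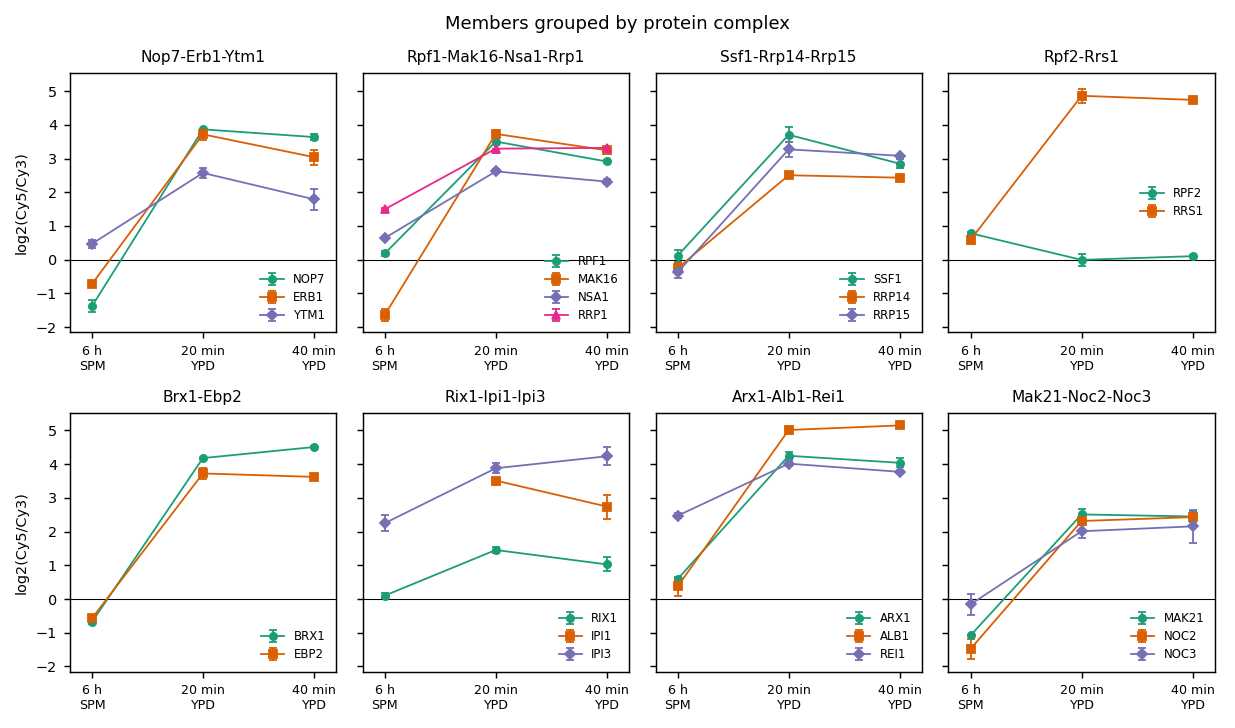
Log2 ratio of Cy5 over Cy3 (y axis) on the 3 arrays (x axis) for members that belong to the same protein complex, 1 panel for each of 8 complexes. Points are means and bars SDs of 2 spots, lines join the values of a gene, and the 6 h point of IPI1 is left out. RPF2 stays near 0 while RRS1 reaches 4.86, and the genes of Rpf1, Mak16, Nsa1 and Rrp1 go from 3.13 log2 units apart to 1.11 at 20 min.

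All 4 GTPase genes were below the reference at 6 h, 3 of them at least 2-fold, and all were at least 8-fold higher than that at both times in YPD. With the floor at the buffer mean NOG1, NOG2, NUG1 and LSG1 read -0.85, -0.16, -0.93 and -0.40 at 6 h, not 2-fold lower. The changes of LSG1 (2.72 and 2.84) and of NOG2 at 40 min (2.93) were then under 8-fold. At 6 h the mean signals of NOG2, Cy5 861 and Cy3 2183, were both under that floor. NOG1, which encodes a nucleolar GTPase whose departure lets cytoplasmic maturation start, went from -1.22 ± 0.13 to 3.57 ± 0.01 and 3.81 ± 0.14, or 27.6-fold and 32.7-fold, with changes of 4.07 and 4.21 under the floor at the buffer mean. NOG2, which guards the particle before export, and NUG1 changed by 4.50 and 4.23 at 20 min and by 4.48 and 4.17 at 40 min. LSG1, the GTPase that frees the export adaptor Nmd3 in the cytoplasm, had the smallest change of the 4, from -0.63 ± 0.00 to 2.67 ± 0.03 and 2.88 ± 0.03. As a group the GTPases had medians of 4.37 and 4.33.

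The Rix1 complex recruits Mdn1 to the nucleoplasmic particle, and 2 of its genes, RIX1 and IPI3, had changes under the median of the members. RIX1 read 0.10 ± 0.08, 1.45 ± 0.08 and 1.03 ± 0.21, so it was 2.55-fold above 6 h at 20 min and 1.90-fold above it at 40 min, under the limit. Its change at 20 min was 0.78 under the floor at the buffer mean, under the limit too. IPI3 began at 2.25, or 1.22 under that floor, and reached 3.88 ± 0.15 and 4.23 ± 0.27, a change of 1.63 and 1.98. IPI1 had both spots under the floor in both channels at 6 h, so its 6 h ratio of 0 was not measured and its change of 3.51 and 2.74 has no measured base. Its mean Cy5 signal was 399 at 6 h against 5109 and 2493 in YPD. Without IPI1, 53 and 52 of 57 members were at least 2-fold higher than at 6 h.

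MDN1 was at least 2-fold higher than at 6 h but never reached the reference. Its log2 ratios were -1.94 ± 0.19, -0.58 ± 0.24 and -0.32 ± 0.19, a change of 1.36 and 1.62. A Cy5 spot of it was under the floor at 6 h, and its mean Cy5 signal was only 700, 823 and 712 on the 3 arrays. With the floor at the mean over the buffer spots its change was 0.21 and 0.45, so the call was lost.

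Placeholders are relatives of ribosomal proteins that occupy their sites until the subunit is nearly complete, and MRT4 and RLP24 differed. MRT4, the placeholder of the stalk protein P0, was among the members with the most positive change. It read -0.75 ± 0.14, 5.22 ± 0.20 and 5.18 ± 0.04, with mean Cy5 signals of 563, 28350 and 26947. A Cy5 spot of it was under the floor at 6 h and its mean there was under the median of the buffer spots, so no exact fold is given: its change was 5.97 and 5.93 with the lower floor and 4.60 and 4.58 with the floor at the buffer mean. RLP24, the placeholder of Rpl24, read -0.77 ± 0.19, -0.66 ± 0.22 and -0.60 ± 0.02 and changed by 0.11 ± 0.41 and 0.17 ± 0.16.

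The ribosomal proteins that take these sites were higher in YPD in both cases. RPL24A and RPL24B changed by 3.92 and 4.26 at 20 min, and RPP0, the gene of P0, by 2.50. TIF6, which keeps the unfinished subunit from joining the small one, went from 0.30 ± 0.09 to 2.30 ± 0.13 and 2.55 ± 0.03, or 4.02-fold and 4.76-fold.

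The 5 factors of export and cytoplasmic maturation had the highest levels in YPD of the 10 groups, with medians of 4.25 and 4.04 against the reference, and all were at least 2-fold higher than at 6 h. ALB1, which encodes the partner of Arx1, went from 0.38 ± 0.28 to 5.01 ± 0.08 and 5.15 ± 0.03. ARX1 itself, an export factor, went from 0.59 ± 0.03 to 4.25 ± 0.11 and 4.04 ± 0.13. REI1, already high at 6 h, changed least: it read 2.47, 4.01 and 3.77, and its change was 1.54 and 1.30, or 0.97 and 0.63 with the floor at the mean over the buffer spots. SQT1 read 2.42 at 6 h, or 1.45 with that floor, and reached 5.71 ± 0.11 and 5.43 ± 0.03, the highest ratios of any member at either time. NMD3, the adaptor to the nuclear export receptor Crm1, changed by 3.34 and 2.86.

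The 8 other assembly factors were all at least 2-fold higher at both times. NSA2 went from -1.36 ± 0.01 to 3.67 ± 0.11 and 3.55 ± 0.06, or 32.7-fold and 30.1-fold, the most positive mean change of the group, and its changes were 4.30 and 4.08 under the floor at the buffer mean. CGR1 read -0.01 ± 0.01, 4.45 ± 0.11 and 5.11 ± 0.09. At 6 h it had 1 spot under the floor in each channel, at 20 min 1 Cy3 spot, and at 40 min both Cy3 spots, so its 40 min ratio is bounded by the floor. Under the floor at the buffer mean its changes were 3.12 and 3.05. LOC1, which also acts in the localization of ASH1 mRNA, had the smallest change, from 0.95 ± 0.10 to 2.03 ± 0.00 and 2.05 ± 0.15, or 2.10-fold and 2.15-fold, and 4 of 12 other settings put it under 2-fold at 20 min. PUF6, another gene with a role in ASH1 mRNA repression, changed by 3.33 and 3.13, and NOP4, NIP7 and MAK11 by 3.32, 3.03 and 3.55 at 20 min.

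Between 20 and 40 min in YPD the set stayed nearly level. The median difference was -0.12, 0 members were at least 2-fold higher (1.80% of genes) and 0 lower (3.28% of genes), and over all genes the spot SD of such a difference was 0.25. In 30 members the difference was within that spot SD, in 21 the 40 min value was lower by more, and in 7 it was higher by more. The 6 members lower by at least 1.5-fold were ERB1, YTM1, SSF1, SSF2, RPF1 and IPI1, with differences of -0.59 to -0.86, where 12.2% of all genes were lower by as much. Only CGR1 was higher by at least 1.5-fold (7.88% of genes), at 0.66 ± 0.02, and its 40 min value is set by the floor.

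Genes of the same process outside the set were examined to see where the members stood. Another 31 large subunit factors had a median change of 2.63 at 20 min, with 30 at least 2-fold higher and 1 lower, and of 2.30 at 40 min, with 27 higher and 1 lower. Their extremes were RSA4, an Mdn1 partner (4.93 and 4.03), and NOP13 (4.35 and 4.34) on one side and REH1, the paralogue of REI1 (-1.40 and -1.21), and GRC3, a kinase of spacer processing (1.06 and 0.45), on the other. The small subunit processome, 44 genes, had medians of 3.44 and 3.06, with 41 and 39 genes higher and 1 lower at each time. There EMG1 (5.02 and 5.14) and UTP9 (4.46 and 4.65) lay highest and UTP30 (-1.21 and -1.04) and SOF1 (0.08 and -0.20) lowest. Each of the 3 sets of factors therefore held a gene or a few genes that did not go along with the rest.

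The 78 genes of large subunit ribosomal proteins took another course over the 3 arrays. At 6 h their median was -2.27 and 68 of them were at least 2-fold below the reference, while the assembly factors had a median of -0.30 and 15 of 58 below. In YPD the ribosomal protein genes had a median of 1.56 at 20 min and 2.19 at 40 min against the reference, a median difference of 0.47 between these times, while the assembly factors stood at 3.35 and 2.97. The median change from 6 h was 3.79 and 4.45, and the extremes were RPL26B (5.27 and 6.86) and RPL27A (5.16 and 6.08) against RPL43B (-0.66 and -1.01) and RPL15A (0.04 and 0.83). Many of these genes have near-identical copies, so the values of a pair cannot be assigned to 1 copy.

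**Figure D3:**
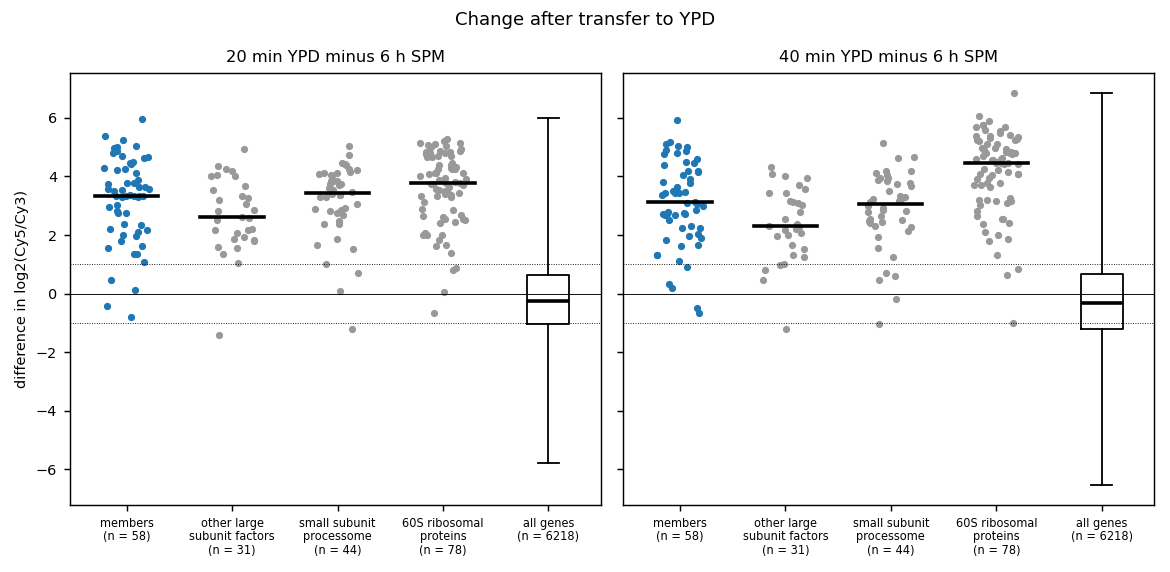
Change in log2 ratio (y axis) from 6 h in SPM to 20 min (left) and 40 min (right) in YPD for the 58 assembly factors (blue), 31 other large subunit factors, 44 genes of the small subunit processome and 78 genes of large subunit ribosomal proteins (grey), with medians as bars. The box for all 6218 genes gives median, quartiles and full range, and dotted lines mark 2-fold. The median of the assembly factors is 3.35 and 3.11 and that of all genes -0.25 and -0.32.

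Transcripts of the known regulators of these genes were mixed. Of 7 regulators, 3 were at least 2-fold higher than at 6 h at both times and 1 was lower. TOD6, which encodes a repressor of ribosome synthesis genes, changed by 3.31 ± 0.03 and 3.44 ± 0.25, and IFH1, a coactivator of ribosomal protein genes, by 3.21 ± 0.18 and 2.99 ± 0.05. The activator gene SFP1 changed by 1.35 ± 0.14 and 1.72 ± 0.06. STB3, a repressor that binds an element of these promoters, changed by -2.03 ± 0.16 and -2.29 ± 0.07, while DOT6, the paralogue of TOD6, changed by -0.32 and -0.59. FHL1 and the kinase gene SCH9 changed by less than 2-fold.

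In the yeast reference annotation (assembly R64) no 2 members were next to each other. In 5 cases a member adjoined a gene from the lists of other large subunit factors and of the small subunit processome. The orientation was divergent in 2, tandem in 2 and convergent in 1. Neighbours with other roles in ribosome synthesis were not looked for. In the divergent pairs NSA2 changed by 5.03 and its neighbour LCP5 by 3.62 at 20 min, and MAK5 by 3.36 and BMT2 by 1.88. RRP15 and its convergent neighbour NOC4 changed by 3.64 and 4.10, and NMD3 and the helicase gene DBP8, in tandem, by 3.34 and 3.75. RIX1 lies next to UTP9, and there the values parted, 1.35 against 4.46. Apart from genes of large subunit ribosomal proteins, 103 other genes lay next to members, and ribosome synthesis genes outside the lists were left among them. Their median change was -0.14 at 20 min, with 18 at least 2-fold higher and 20 lower, so 17.5% were higher where 19.3% of all genes were.

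The differences lay in the Cy5 channel, which holds the samples. With each channel centred on its own median, the Cy5 signal of the members changed by a median of 3.59 at 20 min and 3.33 at 40 min, and the Cy3 signal by -0.06 and -0.01. At 6 h many members were dim: the median Cy5 signal was 2018, 22 of 58 lay under the mean over the spots printed with buffer alone (1650) and 5 under the median of those spots (749). At 20 and 40 min the median Cy5 signal was 17622 and 9262 and 3 members were under the buffer mean each time. In Cy3, 20 members were under the buffer mean at 6 h, 12 at 20 min and 20 at 40 min. The highest raw Cy5 intensity of a member was 53166, for MAK5 at 40 min. Fold changes of members that were dim in either channel, at 6 h or in YPD, therefore depend on how low signals are treated.

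**Figure D4:**
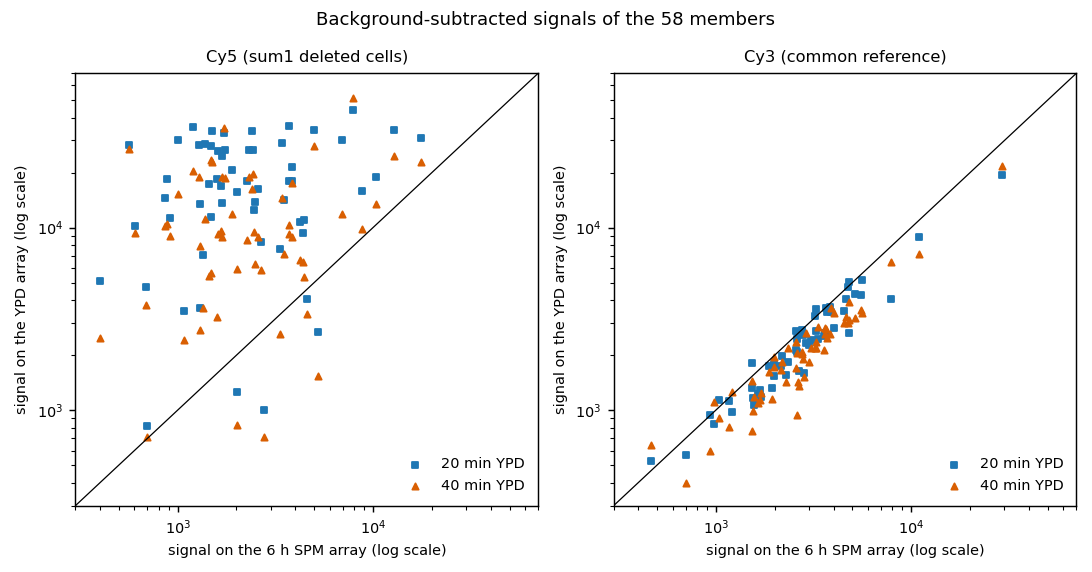
Background-subtracted signal (log scales, arbitrary units, mean of 2 spots) of the 58 assembly factors on the 20 min (blue squares) and 40 min (orange triangles) YPD arrays (y axis) against the 6 h SPM array (x axis), for Cy5 (left, sum1 deleted cells) and Cy3 (right, common reference). The line marks equal signals. The median Cy5 signal goes from 2018 to 17622 and 9262, and most Cy3 signals lie near or somewhat under the line.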

How the data were processed

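RNA of 3 samples was measured on 2-colour arrays of PCR products (6218 genes, 2 spots each, 1 array per sample). The scanner files deposited by the authors hold the intensity and the local background intensity of each spot and channel, quantified with QuantArray version 3 from ScanArray 4000 images. The deposited log2 ratios had been floored, centred on the median and averaged over spots by the authors. Here the background was subtracted, signals under a floor were set to it (Cy5 656, 397 and 268, Cy3 690, 574 and 455 at 6 h, 20 min and 40 min, 5.07% to 5.24% of gene spots), Cy5 was divided by Cy3 on the log2 scale, each array was centred on the median of its gene spots and the 2 spots were averaged. The floor was recovered from the deposited ratios after the data were seen. Apart from 1 constant per array, 97.9% to 98.4% of genes equalled the deposited value within 0.001. The channel labels, the scanner headers and the study's checklist put the sample in Cy5, while the labelling text gives the reverse.

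The members, the lists and the complexes were chosen with earlier results of these data known. The genes named were, in each group, those with the most positive and most negative mean change, all of groups of 3 or fewer, the 5 lowest and 5 highest at 6 h, SSF1 and SSF2, those counted at 6 h against the direction of most, and those with a spot under the floor, and in each other list the 2 extremes on each side. Further members, RPL24A, RPL24B and RPP0 were named after their values were seen. No test was made, since precision is limited by the 3 arrays. On simulated data the calculation recovered the floors that had been set and the known ratios of bright genes. Ratios of dim genes were not checked in this way. Alternatives were normexp (offset 50) and loess in limma 3.58.1 under R 4.3.3, other floors, filters, channels, spots and fold limits.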

Additional observations from a re-analysis of the deposited data

How the results depend on the processing

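No paired analysis was possible because each time point had 1 array. The median kept its direction in every comparison and setting tried except between 20 and 40 min and, with the floor at the buffer mean, at 6 h. With the floor at the mean over the buffer spots, the median was -0.14 at 6 h and 2.42 at 40 min against the reference, and the change was 2.85 at 20 min and 2.41 at 40 min. The -0.14 is the value of any gene with both channels set to that floor, such as IPI1 and MRT4, so it gives no direction at 6 h. Under that floor 3 members were at least 2-fold lower at 6 h, 1 was lower at 40 min than at 6 h, and 3 were lower at 40 than at 20 min. With Cy5 alone the median change at 20 min was 3.59 and 2 members were lower at 40 than at 20 min. With differences centred on the median of all genes the change was 3.59 and 3.43. With loess 5 members were higher at 6 h. Normexp, the first spot only and the second spot only each gave 1 member lower at 40 than at 20 min. At a limit of 1.5-fold, 15 members were higher and 25 lower at 6 h, 1 was lower at 40 min against the reference, 1 lower at each time against 6 h, and between 20 and 40 min 1 was higher and 6 lower. At 3-fold, 3 were higher and 4 lower at 6 h. The number at least 2-fold higher than at 6 h, 54 and 53, stayed within 50 to 54 at 20 min and 48 to 54 at 40 min under all settings and fold limits tried. The median difference between 20 and 40 min ran from -0.30 to 0.11, so it has no settled sign. Apart from the settings whose construction shows it, the cause of a move was not tested. Members near the floor in either channel, at 6 h or in YPD, have changes that depend on the floor, and with 1 array per time point no spread between cultures is known.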
